A study of Mus musculus with 9 samples.

Results

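The genes described here are 9 products of mast cells, basophils and eosinophils: Cpa3, Gzmb, Mcpt8, Prss34, Ms4a2, Fcer1a, Prg2, Epx and Hdc. They were taken as every array probe whose RefSeq accession maps to one of these symbols, which gave 1 probe for each of the 9, among 20660 genes with a probe. Their levels were measured in mouse LSK cells, immature bone marrow cells defined by the absence of mature lineage markers and by surface Sca-1 and Kit. This fraction contains the blood stem cells and the progenitors nearest to them. The cells were sorted from transplanted mice of the C57BL/6 strain. One group carried DNMT3A R882H (R882H cells), the substitution of this DNA methyltransferase that recurs in acute myeloid leukaemia. A second carried wild-type DNMT3A (WT cells), and the third carried the empty vector alone (EV cells), with GFP as the label of transduced cells in all of them. Each group had 3 arrays, and the labels do not say which promoter drives the transgene, whether mice were pooled, or whether replicates came from separate mice. The p-values below are thus relative to the variation among these samples only, part of which may be technical, and their precision is limited by how few arrays there were.

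Mast cells, basophils and eosinophils are granule-bearing cells that arise from the bone marrow, act in allergy and in the defence against parasites, and store their mediators in granules. Mast cells and basophils carry FceRI, the receptor that binds IgE; when antigen crosslinks it, the granules are released with their proteases and histamine. Eosinophil granules hold toxic cationic proteins and a peroxidase instead. In mice these lineages separate from the neutrophil and monocyte path through progenitors in which the transcription factors GATA1, GATA2 and CEBPA set the branch, and some of the granule genes are already transcribed at a low level in immature progenitors. In bulk RNA, fewer cells of a type and less RNA per cell cannot be told apart.

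Promoter sequence is shown for the 4 members on which the results below turn. Cpa3 is the member for which WT cells did not overlap with either other group, and Gzmb, Mcpt8 and Hdc are the members that were highest on the array numbered 3 in every group. The windows are the 250 bases before the gene start, 5′ to 3′ on the gene's strand, from RefSeq on GRCm38.p6, which is not the mm9 build of the probe annotation. They lie on the minus strand at chr3:20242182-20242431 for Cpa3, chr14:56262335-56262584 for Gzmb, chr14:56085198-56085447 for Mcpt8 and chr2:126618679-126618928 for Hdc, so that the protease genes Gzmb and Mcpt8 share chromosome 14. Capitals mark matches on either strand to GATAA, a core bound by GATA factors, to TGTGGT, a core bound by RUNX factors, and to TGANTCA, the AP-1 element.
Cpa3: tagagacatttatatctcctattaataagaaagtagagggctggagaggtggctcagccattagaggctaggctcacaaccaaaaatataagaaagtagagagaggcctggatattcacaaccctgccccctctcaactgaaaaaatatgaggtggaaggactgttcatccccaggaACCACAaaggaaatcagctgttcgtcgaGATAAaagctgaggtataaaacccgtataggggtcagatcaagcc
Gzmb: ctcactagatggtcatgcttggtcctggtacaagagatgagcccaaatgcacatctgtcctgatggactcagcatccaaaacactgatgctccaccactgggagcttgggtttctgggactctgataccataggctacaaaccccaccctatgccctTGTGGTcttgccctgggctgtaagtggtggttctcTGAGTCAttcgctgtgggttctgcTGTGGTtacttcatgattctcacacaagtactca
Mcpt8: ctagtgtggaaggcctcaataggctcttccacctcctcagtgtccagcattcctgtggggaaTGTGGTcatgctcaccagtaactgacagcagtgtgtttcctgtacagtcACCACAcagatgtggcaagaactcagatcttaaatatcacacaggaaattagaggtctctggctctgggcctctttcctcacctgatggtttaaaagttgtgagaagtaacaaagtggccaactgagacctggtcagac
Hdc: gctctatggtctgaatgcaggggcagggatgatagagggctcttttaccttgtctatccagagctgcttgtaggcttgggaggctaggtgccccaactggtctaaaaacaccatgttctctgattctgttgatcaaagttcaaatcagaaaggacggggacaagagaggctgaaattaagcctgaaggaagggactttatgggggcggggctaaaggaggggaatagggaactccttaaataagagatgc
The Cpa3 window holds GATAA with its first base 45 bases before the start and TGTGGT, on the other strand, 73 bases before it. The Gzmb window holds TGTGGT at 93 and 34 bases and TGANTCA at 58 bases before the start, and the Mcpt8 window holds TGTGGT at 188 and 139 bases. None of these motifs was found in the Hdc window. Windows were at hand for 8 members, all but Prg2, and GATAA was in 4 of these 8 (Cpa3, Prss34, Ms4a2 and Fcer1a), against 22.6% of all 32851 such windows. TGTGGT was in 4 of 8 (Cpa3, Gzmb, Mcpt8 and Fcer1a), against 14.1% of all windows, and TGANTCA in 1 of 8, against 6.75%. The matches do not overlap one another in these windows, and a match is a description of the letters, not of binding.

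Of 55681 probes per array, 60.8% ± 3.66 were well above background in R882H cells, 59.4% ± 4.72 in WT cells and 56.2% ± 2.39 in EV cells (SD, n = 3 each). Of the 6 LSK markers listed for the check, 5 were well above background on all 9 arrays, among them Kit, Ly6a, which encodes Sca-1, and Cd34. The mouse Dnmt3a probe read 1.40 ± 0.30 in R882H cells, 1.22 ± 0.70 in WT cells and 1.03 ± 0.47 in EV cells (log2 units above the 75th percentile of the array, SD, n = 3 each), and the labels do not say whether it detects the transgene. In the authors' deposited value table, 7 of 9 columns held the array of another sample than the one they are named for, 4 of them from another group. Read in the order of the sample list, the columns held EV replicates 1 to 3, then R882H replicates 1 to 3, then WT replicates 1 to 3. That is the alphabetical order of the groups, while the names the columns carry follow another order. Which naming is right was not settled. The groups used here are those of the scanner files, and each member's difference below that changes direction with the table's column names is given with that value too. Arrays lay on 3 slides: all EV arrays and WT replicate 1 on the first, WT replicates 2 and 3 with R882H replicates 1 and 2 on the second, and R882H replicate 3 alone on the third.

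Detection set the members apart. Cpa3, Gzmb, Mcpt8, Prg2, Epx and Hdc, 6 of the 9, were well above background on all 9 arrays. Prss34 was so on 7 arrays, among them all 3 of EV cells, which brought it into the test. Fcer1a was well above background on 5 arrays and Ms4a2 on 3. Neither IgE receptor gene was so on all 3 arrays of any group, and neither was tested. Of the mast cell markers listed for the check, 8 of 9 had a probe and 4 were well above background on all 9 arrays: Cpa3, Hdc, Kit and the tryptase gene Tpsb2. The chymase genes Cma1 and Mcpt4, which mark mature connective tissue mast cells, were so on 4 and 5 arrays. Of 5 basophil markers only Mcpt8 was well above background on every array. Of 6 eosinophil markers 5 were, and the exception was the eotaxin receptor gene Ccr3, on 2 arrays. Of eosinophil genes outside these markers that were listed for the counts below, Ear10 was so on 9 arrays, Ear1 on 3, Alox15 on 1, and Ear2 and Ear6 on 0.

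All levels that follow are log2 processed signal minus the 75th percentile of the array, and differences are in log2 units. They are set against each other within a probe only.

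**Figure D1:**
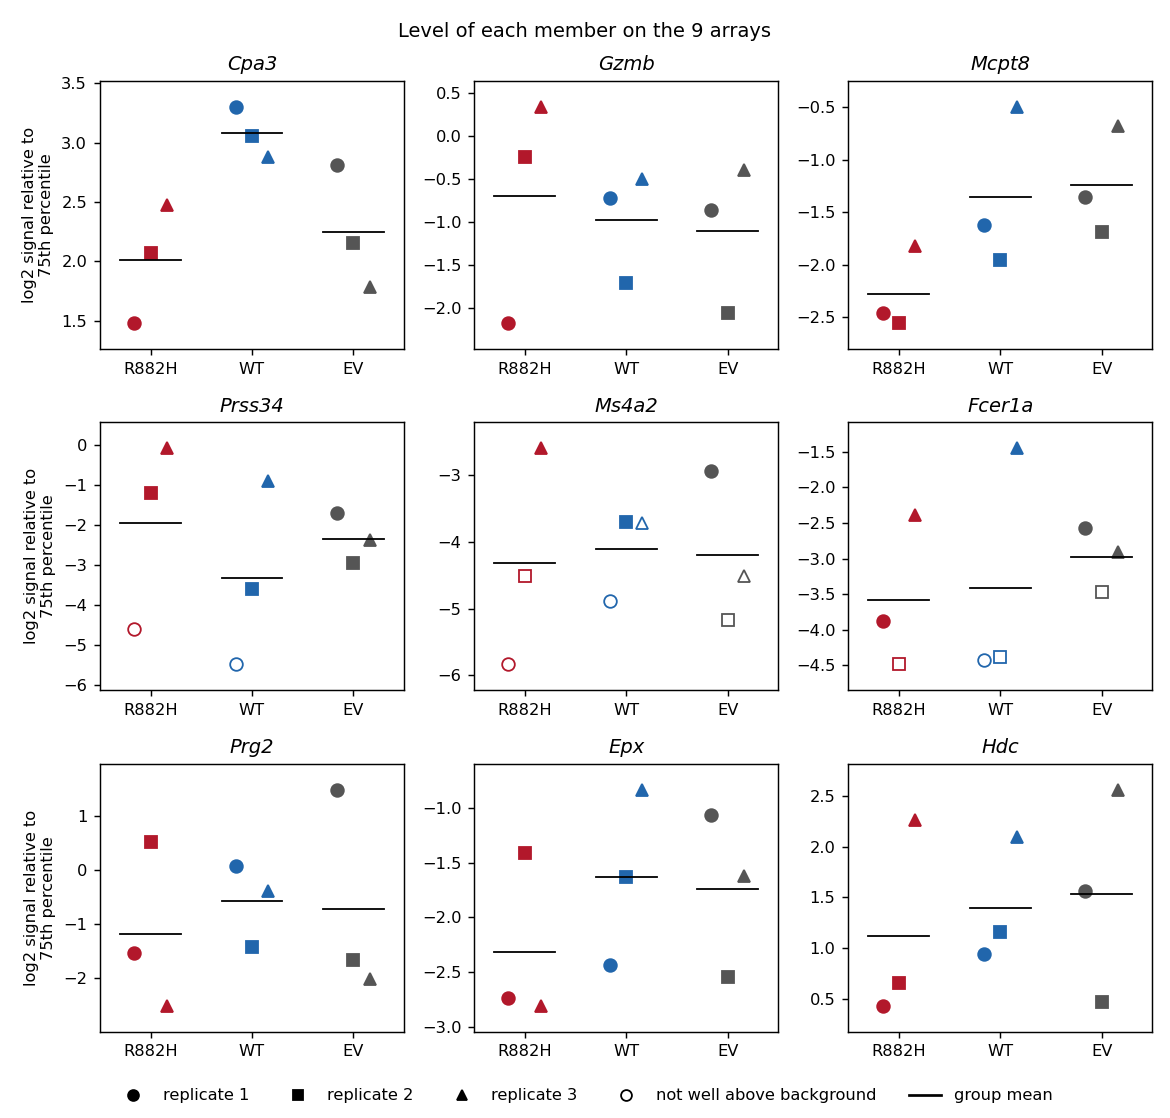
Level of each of the 9 genes on every array (y axis, log2 units above the 75th percentile of the array, with a scale of its own in each panel) for R882H, WT and EV cells. Marker shape gives the replicate number, open markers are spots not well above background, and bars are group means; Cpa3 is highest on the 3 WT arrays, and Mcpt8 is lower on the 3 R882H arrays than on the 3 EV arrays.

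Among the granule proteases, Cpa3 encodes carboxypeptidase A3, a secretory granule enzyme of mast cells that is also transcribed in early blood progenitors of the mouse. Its levels were 1.48, 2.07 and 2.48 in R882H cells (replicates 1 to 3), 3.30, 3.06 and 2.88 in WT cells, and 2.81, 2.15 and 1.79 in EV cells. WT cells lay above both other groups without overlap, while R882H and EV cells overlapped. The mean of R882H cells differed from that of WT cells by -1.07 ± 0.32 (SE; 95% interval -1.79 to -0.35), with a limma unadjusted p of 0.00848 and an adjusted p of 0.554. WT cells differed from EV cells by 0.83 ± 0.32 (95% interval 0.11 to 1.55), with an unadjusted p of 0.0287 and an adjusted p of 0.780 by limma. Neither passed the adjusted threshold of 0.05, and both rest on the same WT arrays. Within the second slide the difference between the 2 R882H arrays and the 2 WT arrays was -1.19, and within the first slide WT replicate 1 stood 1.05 above the mean of the 3 EV arrays. By the column names of the value table the same differences were 0.36 and -0.65, of the opposite sign. R882H cells stood at -0.24 ± 0.32 from EV cells (95% interval -0.96 to 0.48), a value that was 0.039 without EV replicate 1 and 0.023 without R882H replicate 1.

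Mcpt8 encodes mast cell protease 8, which in the mouse is made by basophils and marks that lineage. Its levels were -2.46, -2.55 and -1.82 in R882H cells, -1.62, -1.95 and -0.50 in WT cells and -1.36, -1.69 and -0.67 in EV cells. Every R882H array lay below every EV array, and R882H and WT cells overlapped at 1 array each. R882H cells differed from EV cells by -1.04 ± 0.41 (95% interval -1.97 to -0.11; 2.06-fold lower), with a limma unadjusted p of 0.0321 and an adjusted p of 0.521. The difference from WT cells was -0.92 ± 0.41 (95% interval -1.85 to 0.0058; limma adjusted p = 0.626), and WT cells stood at -0.12 ± 0.41 from EV cells. The difference between R882H and EV cells ran from -1.27 to -0.76 when single arrays were left out and was -0.99 without number 3 in any group. With normexp background correction it was -0.51, and with slide as a block -1.67, although R882H and EV cells share no slide and are linked there through WT arrays only. By the value table's column names it was -0.077, and the difference from WT cells was 0.070.

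Gzmb encodes granzyme B, the death-inducing serine protease of cytotoxic lymphocytes, which mouse mast cells also make. It stood at -2.18, -0.24 and 0.34 in R882H cells, -0.72, -1.71 and -0.50 in WT cells and -0.86, -2.06 and -0.40 in EV cells. The groups overlapped throughout, and R882H cells held both the lowest and the highest of the 9 arrays. The difference of R882H cells was 0.41 ± 0.67 from EV cells (95% interval -1.12 to 1.94) and 0.29 ± 0.67 from WT cells (95% interval -1.24 to 1.81). Without R882H replicate 3 these values were -0.10 and -0.23, the first was -0.065 without EV replicate 2, and the second was -0.081 without WT replicate 2. WT cells stood at 0.13 ± 0.67 from EV cells, and at -0.22 by the value table's column names. Cytotoxic lymphocyte genes were examined beside it: of 18 listed, 9 were tested and 0 were called by limma in any comparison. In R882H against EV cells 2 of these 9 were at an unadjusted limma p under 0.05, against 9.03% of all genes tested. Gzma, which encodes granzyme A, was well above background on 8 arrays. Of the 8 markers of these cells listed for the check, 4 were well above background on all 9 arrays: Gzmb itself, the perforin gene Prf1, Nkg7 and the T cell receptor complex gene Cd3e. The T cell gene Cd8a was so on 0 arrays, the NK cell gene Ncr1 on 1 and Klrd1 on 4. In the list of 18, Cd3d and Cd3g, of the same complex as Cd3e, were so on 0 and 1 arrays, Cd8b1 on 0 and Klrb1c on 2. Over the 9 arrays the mean of this list and Gzmb had a Pearson r of -0.25, given as a description.

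Prss34 encodes mast cell protease 11, a tryptase of mouse basophils. Its levels were -4.59, -1.20 and -0.09 in R882H cells, -5.48, -3.60 and -0.91 in WT cells and -1.71, -2.94 and -2.38 in EV cells, where the first value of R882H and of WT cells was not well above background. The 9 arrays spanned 5.39 log2 units, and EV cells lay inside the range of both other groups. Its SD within groups, 1.93, was larger than that of 99.9% of the 13118 genes tested, of which the median was 0.29. R882H cells stood at 0.38 ± 1.31 from EV cells (95% interval -2.58 to 3.35) and at 1.37 ± 1.31 from WT cells (95% interval -1.59 to 4.33). The first of these was -0.55 without R882H replicate 3, and with the slide in the fit it was -3.78. It was 2.64 by the value table's column names, and the second was 2.79.

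The IgE receptor genes were near the detection limit. Fcer1a encodes the alpha chain, which binds IgE, and read -3.88, -4.49 and -2.39 in R882H cells, -4.42, -4.39 and -1.45 in WT cells and -2.57, -3.47 and -2.91 in EV cells. Ms4a2 encodes the beta chain, which amplifies the signal, and read -5.83, -4.52 and -2.61 in R882H cells, -4.89, -3.71 and -3.72 in WT cells and -2.94, -5.17 and -4.51 in EV cells. For Fcer1a 2, 1 and 2 of 3 arrays were well above background in R882H, WT and EV cells, and for Ms4a2 1 array of each group was. The groups overlapped for both genes, and the means of R882H and EV cells differed by -0.60 for Fcer1a and by -0.11 for Ms4a2, with no test. Under the column names of the value table these were 0.70 and 0.71, and when single arrays were left out they ran from -1.20 to -0.15 for Fcer1a and from -0.97 to 0.64 for Ms4a2. Fcer1g, which encodes the signalling chain shared with other Fc receptors, was well above background on all arrays, at 2.84 ± 0.05 in R882H cells, 3.82 ± 0.31 in WT cells and 3.39 ± 0.23 in EV cells (SD, n = 3 each). R882H cells stood at -0.98 from WT cells for this gene (limma adjusted p = 0.336) and at -0.55 from EV cells (limma adjusted p = 0.521), and neither passed.

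The eosinophil granule genes varied widely within each group. Prg2 encodes the major basic protein, the crystalloid core of the eosinophil granule, and stood at -1.53, 0.52 and -2.51 in R882H cells, 0.07, -1.42 and -0.40 in WT cells and 1.48, -1.66 and -2.01 in EV cells. Its highest array was EV replicate 1 and its lowest R882H replicate 3, 3.99 log2 units apart, and the groups overlapped. R882H cells differed from EV cells by -0.45 ± 1.01 (95% interval -2.74 to 1.85), which was 0.66 without EV replicate 1 and 0.22 without R882H replicate 3. The difference of R882H from WT cells was -0.59 ± 1.01 and that of WT from EV cells 0.15 ± 1.01, against 0.86 and -1.63 by the value table's column names. Epx encodes eosinophil peroxidase and stood at -2.73, -1.42 and -2.81 in R882H cells, -2.43, -1.63 and -0.83 in WT cells and -1.06, -2.55 and -1.62 in EV cells. Its differences of R882H cells were -0.58 ± 0.54 from EV cells (95% interval -1.80 to 0.64) and -0.69 ± 0.54 from WT cells (95% interval -1.91 to 0.53), with overlapping groups. By the value table's column names they were 0.32 and 0.31. Over the 9 arrays Prg2 and Epx had a Pearson r of 0.60, and of 0.58 for deviations from the group means.

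Hdc encodes histidine decarboxylase, which makes histamine and which in the mouse is also transcribed in myeloid progenitors. It stood at 0.43, 0.65 and 2.26 in R882H cells, 0.94, 1.16 and 2.09 in WT cells and 1.57, 0.47 and 2.56 in EV cells. The groups overlapped, and the array numbered 3 was the highest of each. The differences were -0.42 ± 0.62 for R882H against EV cells (95% interval -1.83 to 0.997), -0.28 ± 0.62 for R882H against WT cells (95% interval -1.70 to 1.14) and -0.14 ± 0.62 for WT against EV cells (95% interval -1.55 to 1.28). By the value table's column names these were 0.67, 0.28 and 0.38.

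**Figure D2:**
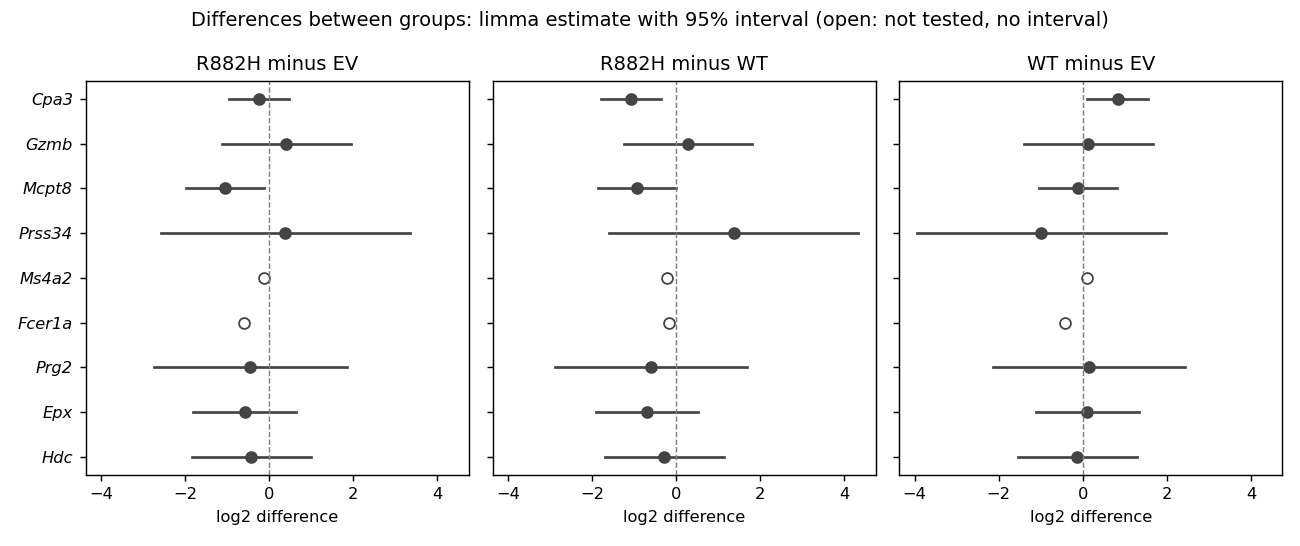
Difference in log2 signal between groups for each of the 9 genes (x axis, log2 units), with R882H minus EV, R882H minus WT and WT minus EV in a panel each. Points are limma estimates and lines their 95% intervals, unadjusted; open points are the untested Fcer1a and Ms4a2. The intervals of Mcpt8 (R882H minus EV) and Cpa3 (R882H minus WT, and WT minus EV) do not reach 0, and none of the 7 tested genes passed the adjusted threshold.

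Over all members, 7 of 9 stood lower in R882H than in EV cells, with a median difference of -0.42, against -0.02 over all tested genes. Against WT cells 7 of 9 were also lower in R882H cells, with a median of -0.28 (-0.01 over all tested genes), and this comparison shares the R882H arrays with the first. Both counts of 7 include Ms4a2 and Fcer1a, which lay near background and were not tested. In WT cells 5 of 9 were higher than in EV cells, with a median of 0.10 (0.01 over all tested genes). None of the 7 tested members was called by limma (an adjusted p under 0.05) in any of these comparisons, where 0% of all 13118 genes tested were called in each. At an unadjusted limma p under 0.05 there was 1 member in each comparison, against 9.03% of all genes in R882H against EV cells, 8.01% in R882H against WT cells and 5.95% in WT against EV cells. In the direction of that member the background was 3.47% lower, 4.34% lower and 3.5% higher in the same order. Groups did not overlap for 1 of 9 members in each comparison. Mcpt8 was lower in R882H than in EV cells, as were 8.76% of all genes without overlap (18.3% in either direction). Cpa3 was lower in R882H than in WT cells, as were 8.62% (15.4% in either direction), and higher in WT than in EV cells, as were 5.69% (10.1% in either direction). Shares of 1 in 9 members are near this background and are not a result about the members. Within the second slide, with 2 arrays of each group, R882H cells stood at -1.28 from WT cells for Mcpt8, -0.84 for Epx and -1.08 for Hdc, and at -0.10 for Gzmb, -0.64 for Prss34 and 0.40 for Prg2, where the sign was opposite to that over all arrays. Within the first slide, WT replicate 1 stood at 0.38 from the EV arrays for Gzmb and 0.80 for Prg2, at -0.38 for Mcpt8, -3.14 for Prss34 and -0.60 for Hdc, and at -0.69 for Epx, the one tested member of opposite sign there. The median of the 9 in R882H against EV cells was 0.67 by the value table's column names and -1.67 with slide as a block.

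The array number went with several members. Gzmb, Mcpt8 and Hdc, 3 of 9, were highest on replicate 3 of each of the groups, as were 11.3% of all genes tested, and 0 of 9 were lowest on it throughout, against 7.32% of all genes. Replicate 3 stood above the mean of replicates 1 and 2 by 1.72, 1.04 and 1.54 for Hdc and by 0.68, 1.29 and 0.85 for Mcpt8 in R882H, WT and EV cells. For Gzmb the same values were 1.55, 0.71 and 1.06. Prss34 and Fcer1a were also highest on replicate 3 in R882H and WT cells, by 2.80 and 3.63 for Prss34 and by 1.80 and 2.95 for Fcer1a, while in EV cells it lay at -0.05 and 0.11. Prg2 ran the other way in R882H and EV cells, at -2.001 and -1.93, and stood at 0.28 in WT cells. The mean deviation of 8 tested azurophil and neutrophil granule genes, a list led by Mpo, Ctsg and Ms4a3, moved with the same arrays: it was -1.13, -0.97 and -0.05 on R882H replicates 1 to 3, -0.63, -0.32 and 1.46 in WT cells and 0.13, -0.68 and 2.19 in EV cells. Over the 9 arrays this list had a Pearson r of 0.91 with Mcpt8 and of 0.87 with Hdc, and of 0.92 and 0.90 for deviations from the group means. With Cpa3 it had an r of 0.03, and with Prg2 of -0.16. The values of Mcpt8 and Hdc over the 9 arrays were the highest of any member with any of the gene lists described below. For the deviations Prg2 had an r of 0.91 with the megakaryocyte and erythroid list. Mcpt8 had an r of -0.62 over the 9 arrays with the 2 tested basophil genes, and Hdc of 0.03 with the mast cell list. The mean of the LSK and stem cell marker list had an r of -0.81 with each of Mcpt8 and Hdc. Its part and that of the azurophil genes in the members' differences were not tested.

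**Figure D3:**
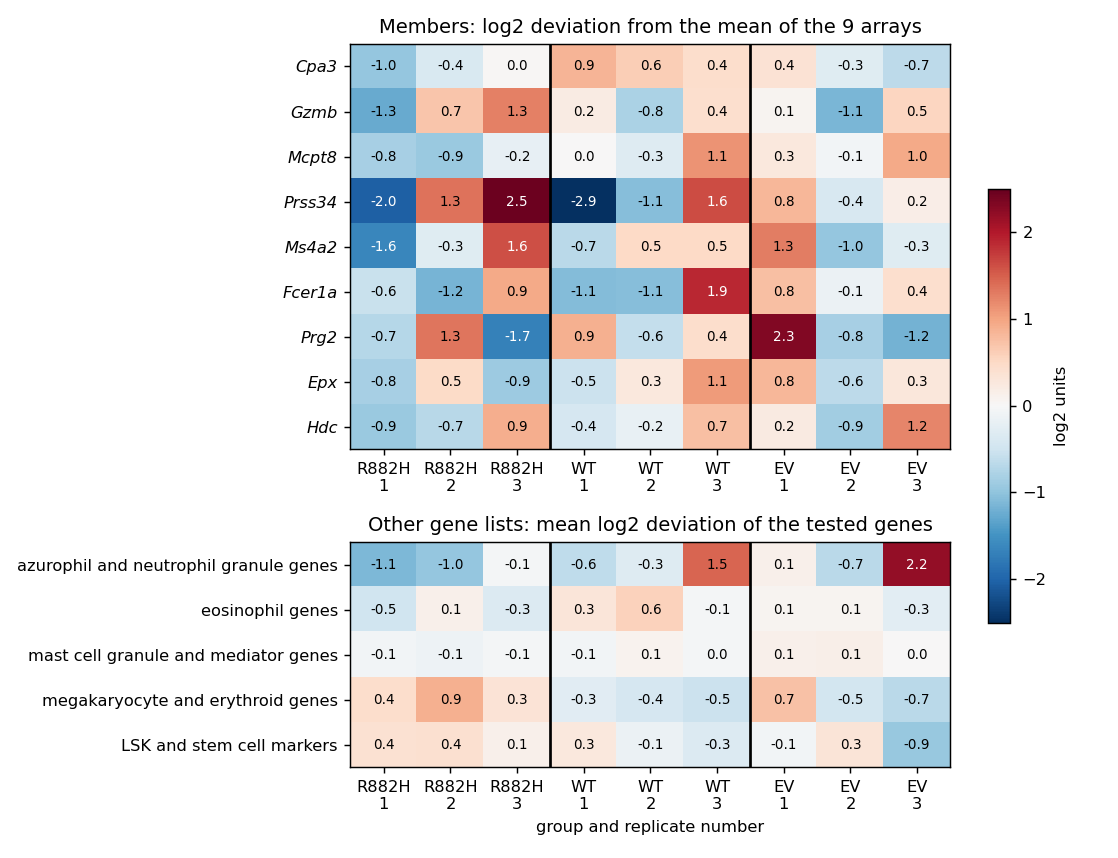
Deviation of each of the 9 genes from its own mean over the 9 arrays (upper panel) and mean deviation of the tested genes of 5 other lists (lower panel), in log2 units given by colour and number, with arrays in columns by group and replicate. Hdc and Mcpt8 are highest on replicate 3 of each group, as is the azurophil and neutrophil list, while Cpa3 and Prg2 do not follow it.

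Among the members themselves, 31 of 36 pairs had a positive Pearson r over the 9 arrays, with a median of 0.36. For deviations from the group means 32 of 36 were positive, with a median of 0.45. The share of positive pairs over all tested genes was not computed, so these counts are not a result about the members. Mcpt8, Hdc and Fcer1a were most alike over the 9 arrays, with r between 0.73 and 0.75 for their pairs and between 0.72 and 0.87 for the deviations. In the deviations some other pairs lay within that range, such as Prss34 with Ms4a2 (0.78) and Gzmb with Hdc (0.77). Fcer1a and Ms4a2 were well above background on only 5 and 3 arrays, which limits every r that involves them. Prss34 had an r of 0.70 with Ms4a2 and of 0.66 with both Gzmb and Fcer1a, and Gzmb had one of 0.69 with Hdc. Prg2 was apart from these, with an r of -0.23 with Hdc, -0.081 with Fcer1a, -0.013 with Mcpt8 and -0.0060 with Prss34. All such values are over the same 9 arrays, which share amplification, slide and number, and are descriptions. Of genes outside the list, Ints9, Tdp1, Racgap1 and Gon4l were among those most like the mean of the 7 tested members (standardised levels, r between 0.92 and 0.94 over the 9 arrays). Sppl2b, Cenpo and Cntrl were most like Cpa3, with r of 0.96, 0.93 and 0.91, and Pik3r4, Olfr978 and Chic2 most like Gzmb, with r of 0.91, 0.90 and 0.89. For the deviations the first 3 had r of 0.92, 0.85 and 0.78 with Cpa3. All these genes were picked for the highest r among all tested genes outside the members, so high values follow from the choice.

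Other genes of these lineages were counted from lists. Of 19 mast cell granule and mediator genes, 18 had a probe and 8 were tested, 4 higher and 4 lower in R882H than in EV cells, with a median of -0.05. The serglycin gene Srgn, whose product packs granule proteases, stood at -0.33, Alox5ap of leukotriene synthesis at -0.18 and Slc18a2, the vesicular monoamine transporter that loads histamine, at 0.40. Mcpt1, Mcpt2, Mrgprb1 and Rgs13 of this list had no array at which they were well above background. Of 7 basophil genes 2 were tested, the activation marker Cd69 at 0.81 and Il18rap at -0.15. Of 9 further eosinophil genes 4 were tested, with a median of -0.15 in R882H against EV cells and -0.53 against WT cells. Among these the lectin receptor gene Siglecf stood at -0.63 and -0.88, Prg3, a homologue of Prg2, at -0.87 and -0.998, and the IL-5 receptor gene Il5ra at 0.40 and -0.17 in the same order. None of these genes was called by limma in any of the comparisons. In R882H against EV cells 1 of 8 mast cell genes and 0 of the basophil and eosinophil genes were at an unadjusted limma p under 0.05. The share of all genes tested was 9.03%. In R882H against WT cells 2 mast cell genes, 0 basophil genes and 1 eosinophil gene were so, against 8.01% of all genes. The median of the mast cell list in R882H against EV cells ran from -0.24 to 0.059 over all settings tried and has no firm sign.

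All 9 cytokine and growth factor receptors were tested, with a median of 0.17 in R882H against EV cells (-0.12 to 0.36 over all settings tried). Il4ra stood at 0.38, Kit, the stem cell factor receptor on which mast cells depend, at 0.26, and Crlf2, a subunit of the TSLP receptor, at 0.17. The 14 genes of IgE receptor signalling had a median of -0.02 (-0.091 to 0.053 over the same settings), 6 higher and 8 lower, with the adaptor gene Lat2 at 0.19 and the exchange factor gene Vav1 at -0.12 beside Fcer1g. Of 16 transcription factors 15 were tested, 9 higher and 6 lower, with a median of 0.26 that was 0.031 without EV replicate 3, 0.16 without R882H replicate 1 and -0.094 by the value table's column names. Gata2, which mast cells and basophils require, was at 4.19 ± 0.06 in R882H cells, 3.41 ± 0.29 in WT cells and 3.56 ± 0.45 in EV cells (SD, n = 3 each), a difference of 0.63 from EV and 0.78 from WT cells (limma adjusted p = 0.521 and 0.554). Stat5b stood at 0.19 and Ikzf1 at -0.16 against EV cells. Gata1 and Cebpa, added after their values were seen because the background names them, stood at 1.16 and -0.46 (limma adjusted p = 0.521 and 0.661). None of the receptors, signalling genes or transcription factors was called by limma in any comparison. At an unadjusted limma p under 0.05 there were 2 of 9 receptors, 1 of 14 signalling genes and 4 of 15 transcription factors in R882H against EV cells. The share of all genes tested was 9.03%.

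Lists of other blood cells were read beside the members in R882H against EV cells. The azurophil and neutrophil list had a median of -1.36, with 7 of 8 tested genes lower, and Mpo, Ctsg and Ms4a3 stood at -0.89, -1.32 and -1.53. Its median was -0.66 without EV replicate 3, -2.11 without EV replicate 2 and -3.02 with the slide in the fit. Megakaryocyte and erythroid genes had a median of 0.88, with 8 of 10 higher, Pf4 at 0.83, Car1 at 0.92 and Hbb-bt at -1.39. Their median was 0.53 without EV replicate 3, 1.44 without EV replicate 1 and 0.19 by the value table's column names. The medians were 0.02 for cytotoxic lymphocyte genes, where Nkg7, Prf1 and Gzmk stood at -0.46, 0.34 and -0.08, and -0.0027 for macrophage genes, with Csf1r, C1qb and Adgre1 at -0.0027, 0.10 and 0.38. LSK and stem cell markers had a median of 0.26, with Cd34 at 0.06 and Cd48 at -0.15. That median was 0.16 without EV replicate 3, and it ran from -0.18 by the value table's column names to 1.32 with the slide in the fit. By the value table's column names the azurophil median was 0.40 in this comparison, and it was -0.094 in R882H against WT cells. No gene of these lists was called by limma, and their part in the members' values was not tested. At an unadjusted limma p under 0.05 were 4 of 10 megakaryocyte and erythroid genes, 2 of 9 cytotoxic genes and 1 of 9 stem cell markers. Of the azurophil and macrophage genes 0 of 8 and 0 of 5 were. The share of all genes tested was 9.03%.

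**Figure D4:**
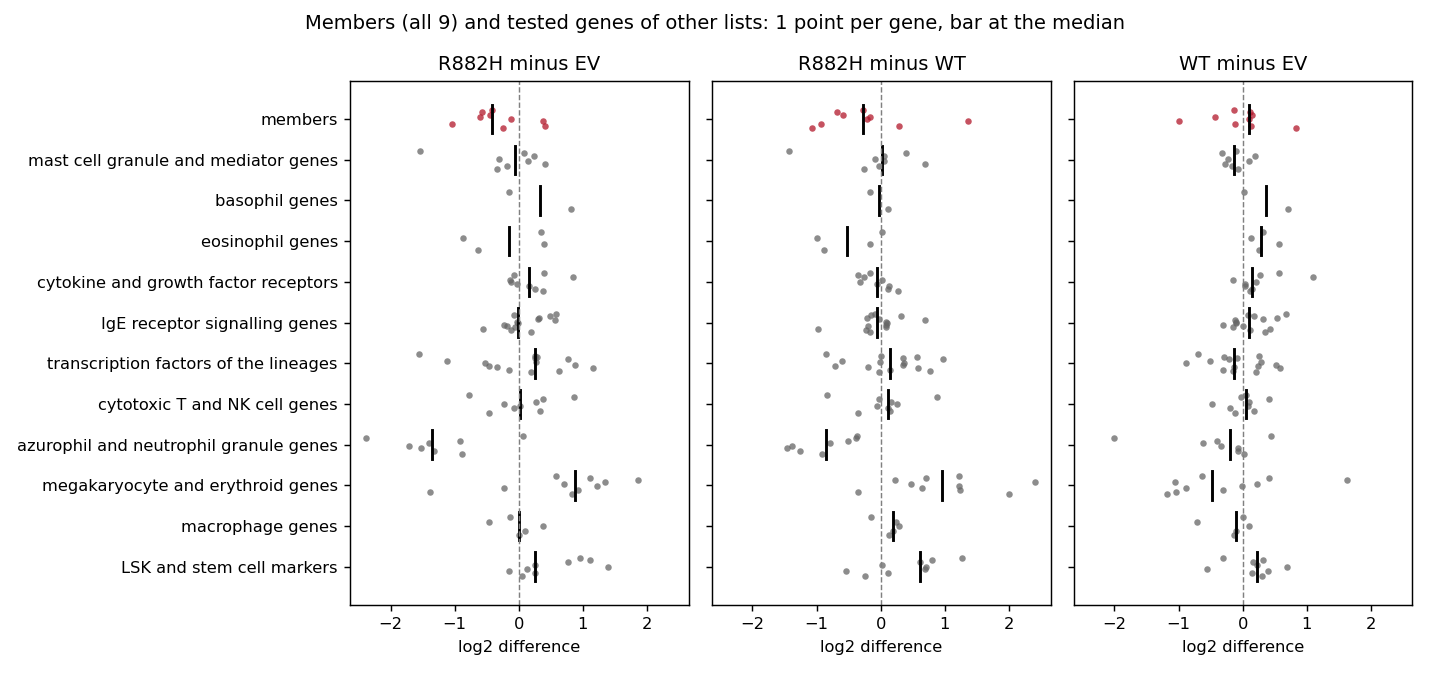
Log2 difference of each of the 9 genes, tested or not, and of each tested gene of the other lists (x axis, log2 units), in R882H minus EV, R882H minus WT and WT minus EV. Each point is 1 gene and each bar the median of its list. The azurophil and neutrophil list lies furthest to the left in R882H minus EV, with a median of -1.36 (-0.66 without EV replicate 3), and the 9 genes have a median of -0.42.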

How the data were processed

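RNA of 9 LSK samples was hybridised to Agilent SurePrint G3 mouse arrays in 1 colour, after amplification from 3.67 ng of total RNA per the labels' protocols. Feature Extraction 10.10.1.1 read the spots, per the file headers, and the authors deposited background-subtracted, detrended intensity for each spot, beside yes or no calls. The authors' deposited value table holds log2 values of the same arrays. Set against the scanner files (r of at least 0.9985 per column), these are relative to the 75th percentile and centred on each probe's median. No source used here gives its making. No spot was saturated, and 154 to 184 outlier spots per array were left out. Intensity was taken to log2, less the 75th percentile of its array, and the spots of each probe were averaged. Symbols came from RefSeq accessions for 27235 of 55681 probes. Per symbol, the probe of highest mean was kept among those that every array of some group called well above background, giving 13118 genes.

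Groups were compared with limma 3.58.1 in R 4.3.3 on all 9 arrays, with Benjamini-Hochberg adjusted p under 0.05 over all genes. The procedure was run on simulated data with independent noise and shifts larger than any member difference in the main fit. That run thus does not show how changes of the members' size would be called. Members and lists were chosen with earlier results of these data known. All 9 members are named, with the 3 tested genes of highest mean per list and the genes of highest r, of which 1 is not reported here. Same-numbered arrays of WT and EV cells correlated at 0.116, 0.222 and 0.324 in their deviations from the group means, all over 0.1, so the numbers were taken to pair them, from the data and not from the labels. The main fit has no term for the number, which enters as a block in an alternative setting only. The intervals and p-values given for WT against EV cells thus leave this pairing out. Normexp used the median spot signal, since no mean signal column was at hand. Promoters are RefSeq's, on GRCm38.p6.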

Additional observations from a re-analysis of the deposited data

How the results depend on the processing

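No member was called by limma under any of 17 alternative settings in any comparison, and 0 genes of all tested passed in any of them. With the replicate block the number of genes at an unadjusted p under 0.05 was 1787 against 1184 without it for R882H minus EV, 1484 against 1051 for R882H minus WT and 1074 against 780 for WT minus EV, and the block changed no call. The Mcpt8 adjusted p with the block was 0.245 and 0.244 against EV and WT cells. In R882H and EV cells same-numbered deviations correlated at 0.088, 0.198 and 0.279, and in R882H and WT cells at 0.071, 0.137 and 0.239. In both, replicate 1 fell under the limit of 0.1 and replicates 2 and 3 lay over it, so those samples were not taken as paired. Whether the number marks a batch that R882H cells share was not tested. Quantile normalization turned the sign of no tested member. Each member has 1 probe, so the mean of all detected probes and dropping the filter on dim probes left its difference unchanged by construction. Of tested members, normexp turned Prg2 in WT minus EV to -0.10. With slide as a block the median of the 9 members was -1.67 in R882H minus EV, -1.08 in R882H minus WT and -0.60 in WT minus EV. Signs of tested members turned there for Prss34 (-3.78) and Prg2 (1.20) in R882H minus EV, for Gzmb (-0.10), Prss34 (-0.64) and Prg2 (0.40) in R882H minus WT and for Epx (-0.69) in WT minus EV. Without number 3 in any group, those of tested members turned for Prss34 (-0.57) in R882H minus EV, Prg2 (0.17) in R882H minus WT, and Prg2 (-0.59), Epx (-0.23) and Hdc (0.028) in WT minus EV. By the value table's column names the median was 0.67 in R882H minus EV and 0.86 in R882H minus WT, and signs of tested members turned for Epx (0.32) and Hdc (0.67) in the first, for Cpa3 (0.36), Mcpt8 (0.070), Prg2 (0.86), Epx (0.31) and Hdc (0.28) in the second, and for Cpa3 (-0.65), Gzmb (-0.22), Prg2 (-1.63) and Hdc (0.38) in WT minus EV. Of the untested members, Fcer1a (0.70) and Ms4a2 (0.71) turned in the first, both (0.95 and 1.07) in the second, and Ms4a2 (-0.36) in WT minus EV. That setting differs by construction, since 4 columns hold arrays of another group. With slide as a block, R882H minus WT rests on the second slide alone and WT minus EV on the first, with 1 WT array. R882H replicate 3, alone on its slide, does not enter these differences. The slide block values thus repeat the within-slide ones above and are not a separate check. The cause of the remaining changes was not tested.

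When single arrays were left out, the median of the 9 ran from -0.85 to 0.04 in R882H minus EV, from -0.77 to -0.02 in R882H minus WT and from -0.35 to 0.25 in WT minus EV. In R882H minus EV, the range was -0.47 to 0.039 for Cpa3, -0.10 to 1.16 for Gzmb, -0.55 to 1.70 for Prss34, -1.29 to 0.66 for Prg2 and -0.99 to 0.10 for Hdc. In R882H minus WT it was -0.23 to 1.03 for Gzmb, -1.44 to 0.074 for Prg2 and -0.86 to 0.068 for Hdc. In WT minus EV it was -0.35 to 0.49 for Gzmb, -0.55 to 0.18 for Mcpt8, -2.20 to 0.089 for Prss34, -0.49 to 1.25 for Prg2, -0.29 to 0.51 for Epx and -0.67 to 0.38 for Hdc. Mcpt8 and Epx in R882H minus EV, and Cpa3, Mcpt8, Prss34 and Epx in R882H minus WT, kept their sign without any single array, as did Cpa3 in WT minus EV. Of 93 differences of the other named genes, 59 changed sign under at least 1 of the 17 settings. Ms4a2 and Fcer1a lay near background, where their levels have no firm order.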
